A study of Homo sapiens with 8 samples.

Results

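IGF2BP1 is an RNA-binding protein named for its binding to IGF2 mRNA. The insulin-like growth factor axis is the signaling system that the name of IGF2BP1 points to. The 10 genes described here are IGF2, the receptors IGF1R, IGF2R and INSR, the adaptors IRS1 and IRS2, and the binding proteins IGFBP2, IGFBP3, IGFBP4 and IGFBP6. A peak was counted for one of them when it lay on the same strand within the gene as GENCODE release 44 annotates it, which held for 58 of 22311 peaks with DMSO and 64 of 22123 with AVJ16. H1299, labelled WT, is an established line from a human lung carcinoma of the non-small cell type, and AVJ16 is a small molecule that binds IGF2BP1. Cells received 1.5 µM AVJ16 or 0.01% DMSO for 24 h and were crosslinked with UV light of 254 nm at 400 mJ/cm2, after which RNA bound to IGF2BP1 was sequenced by eCLIP as 2 immunoprecipitated (IP) and 2 size-matched input libraries per treatment. By the labels, the cells of all libraries came from a single thaw, in 2 batches. The authors deposited 1 list per treatment, with the replicates combined, in which each peak has its log2 fold enrichment (IP over input) and its −log10 p-value. Both values are at least 3.00 for every listed peak. Neither read counts nor values of single replicates are listed, so depth is unknown, no difference between treatments could be tested against replicate error, and all values below are descriptions of 2 pooled lists. Each list was normalized to its own inputs.

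IGF1 and IGF2 are secreted growth factors that act through IGF1R, a receptor tyrosine kinase closely related to the insulin receptor INSR. IGF2R has no kinase and removes IGF2 from the cell surface, and the IGFBP proteins hold the ligands in the extracellular fluid. IRS1 and IRS2 dock on the active receptors and pass the signal to PI3K and AKT. IGF2BP proteins bind mostly in 3’UTRs, where they are known to protect mRNAs from decay and to regulate translation.

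The RNA under the peaks that carry the results is shown first, as 30 nt around the middle of a peak, 5′ to 3′ in the sense of the transcript and read from the GRCh38 (hg38) sequence. Capitals mark motifs where they occur. These are the CAU-type motifs CAUA, CAUC and CAUU, the GGAC core of m6A sites with its longer form UGGAC, the CA-rich ACACA, and 2 motifs picked in earlier analyses of these libraries, UCAUUC and the degenerate CCNGUU. The first 5 windows are from the 3’UTR of IGF1R and hold its highest peaks and 2 places where the AVJ16 value was higher. The others are from the highest peak of each remaining gene with a peak, in the list named.
IGF1R highest DMSO peak (chr15:98958566-98958595): uuucucuguuccuaGGACuucuucaugggu
IGF1R second DMSO peak (chr15:98958616-98958645): caugaaaCAUUugCAUACACAUCgucuuua
IGF1R DMSO peak of the downstream region (chr15:98961484-98961513): CAUCuauccacaguucuagccuaacuucau
IGF1R AVJ16 peak inside the long run, higher with AVJ16 (chr15:98958846-98958875): ccgguaauggauacuucuaucaCAUAauuu
IGF1R AVJ16 peak of the downstream region, higher with AVJ16 (chr15:98961540-98961569): cucuguguguuccaaauaaucuuaagcuga
INSR highest DMSO peak, lower with AVJ16 (chr19:7115417-7115446, minus strand): agguguggugccugagcugaaugcucaggu
INSR highest AVJ16 peak (chr19:7112465-7112494, minus strand): cucggcccugugcguuggcaacgcaggauc
IRS1 highest AVJ16 peak (chr2:226736063-226736092, minus strand): uuCAUUgacugaacugcacguucuauauug
IGF2R highest DMSO peak (chr6:160106491-160106520): uucaaucaacuuuacuguaauauaaaguau
IGF2R highest AVJ16 peak (chr6:160105810-160105839): augauaucuucaagccugggcguacagagc
IRS2 DMSO peak (chr13:109754241-109754270, minus strand): aaaaaggCAUAugcaauauuuaCAUUuuua
IGFBP3 AVJ16 peak (chr7:45913422-45913451, minus strand): guacagugcgcacaggcuuuaucgagaaua
IGFBP4 DMSO peak (chr17:40456916-40456945): auccagccaccuaaaaaCAUUuacugacca
The highest IGF1R window holds 1 GGAC, and the window of the second DMSO peak holds a CAUU followed by overlapping copies of CAUA, of ACACA and of CAUC, while 6 of the 13 windows hold none of the motifs.

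IGF2BP1 peaks in these 10 genes lay almost entirely on the mRNAs of the receptors and of IRS1. A peak was listed in 6 of the 10 genes with DMSO, where 25.8% of 20046 protein-coding genes had one, and in 5 of the 10 with AVJ16, where the share over all genes was 23.2%. IGF1R, INSR, IGF2R and IRS1 had peaks in both lists. They are 4 of the 6 genes with a DMSO peak, beside 4095 of 5178 (79.1%) over all protein-coding genes with one. IRS2 and IGFBP4 had a single peak each in the DMSO list only, and IGFBP3 a single one in the AVJ16 list only. IGF2, IGFBP2 and IGFBP6 had no peak in either list. The ligand whose mRNA gave the protein its name was therefore not among the listed targets in H1299 cells. Absence from a list says only that no site passed both thresholds: RNA levels are not part of these lists, and whether IGF2, IGFBP2 and IGFBP6 mRNAs were present at all was not tested.

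IGF1R alone held 41 of the 58 peaks with DMSO and 40 of the 64 with AVJ16. INSR followed with 9 and 14, IGF2R with 3 and 6, and IRS1 with 3 in each list. Among all genes with a peak the median was 3 peaks per gene in both lists. IGF1R was 13th by number of peaks with DMSO and 15th with AVJ16. With touching peaks joined, IGF1R had 18 of the 33 sites with DMSO and 22 of the 41 with AVJ16.

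**Figure D1:**
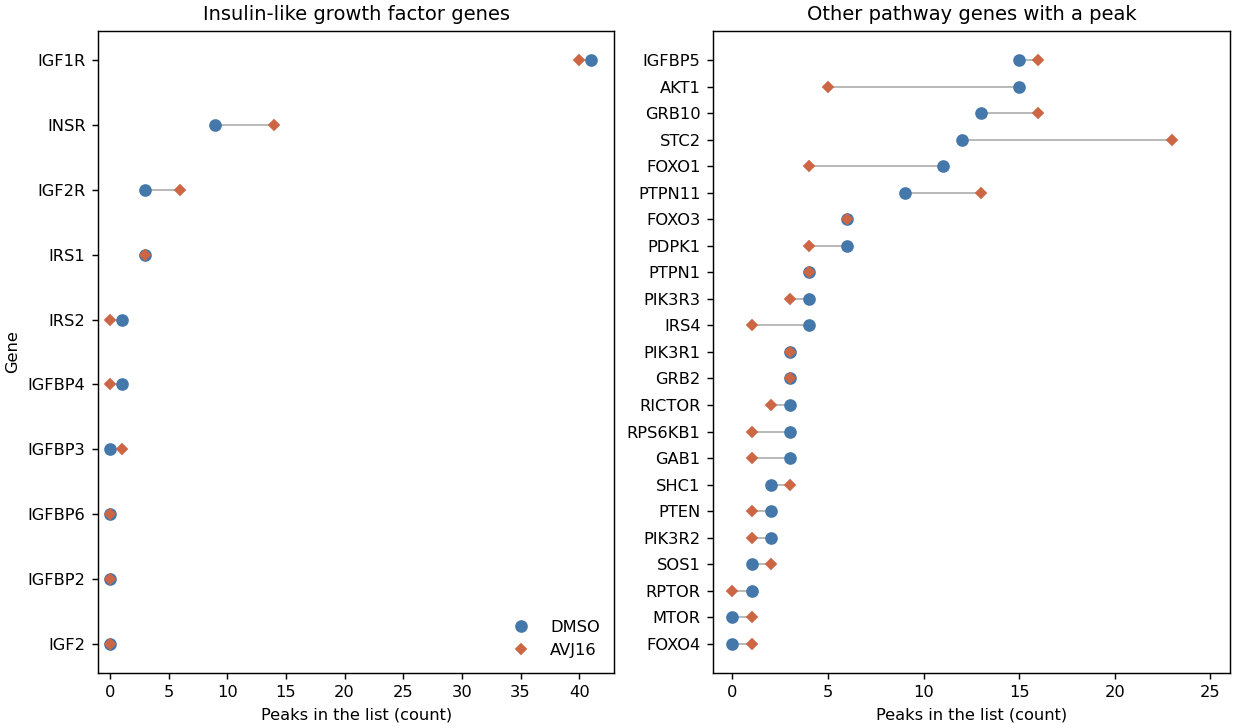
Number of IGF2BP1 peaks per gene in the DMSO list (circles) and the AVJ16 list (diamonds), for the 10 insulin-like growth factor genes (left) and for the other pathway genes with a peak in at least 1 list (right, where 1 gene is not shown). IGF1R stands far to the right of the other genes with 41 and 40 peaks, and IGF2, IGFBP2 and IGFBP6 are at 0 in both lists.

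The members' peaks were more often in the 3’UTR than peaks at large. With DMSO 56 of 58 (96.6%, 95% Wilson interval 88.3 to 99.0%) were in a 3’UTR and 2 in the CDS, beside 74.6% in the 3’UTR and 17.3% in the CDS over all DMSO peaks. With AVJ16 63 of 64 (98.4%, 91.7 to 99.7%) were in a 3’UTR and 1 touched the CDS, beside 75.0% and 20.3% over all AVJ16 peaks. These intervals, like those below, cover counting error only, and neighboring peaks of a gene are not independent. Without IGF1R the 3’UTR shares were 88.2% of 17 DMSO peaks (65.7 to 96.7%) and 95.8% of 24 AVJ16 peaks (79.8 to 99.3%). That DMSO interval includes the 74.6% of all DMSO peaks.

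IGF1R (ENSG00000140443, chr15:98648539-98964530, plus strand) encodes the receptor tyrosine kinase for IGF1 and IGF2. All of its 41 DMSO and 40 AVJ16 peaks were in the 3’UTR, whose longest annotated form runs for 7088 nt past the stop codon, and none was in the CDS or an intron. The peaks covered 2187 nt (30.9%) of this 3’UTR with DMSO and 2355 nt (33.2%) with AVJ16. By covered 3’UTR length IGF1R was second of 4449 genes with a 3’UTR peak in the DMSO list and first of 3979 in the AVJ16 list. Its 3’UTR is also long, so the count is given per length: it had 5.78 peaks per 1000 nt of 3’UTR with DMSO and 5.64 with AVJ16, beside medians of 0.972 and 1.02 over genes with a 3’UTR peak and a 3’UTR of at least 1000 nt. That density was 118th of 3702 such genes with DMSO and 174th of 3323 with AVJ16.

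The IGF1R peaks also had high enrichment and small p-values. Their median log2 fold enrichment was 4.02 with DMSO (lowest 3.32, highest 5.93) and 4.20 with AVJ16 (3.14 to 5.88), beside 3.63 and 3.61 over all peaks of the lists. Their −log10 p had a median of 25.0 in the DMSO list and 28.9 in the AVJ16 list, beside 12.7 and 13.2 over all peaks. The least significant IGF1R peak had a −log10 p of 9.21 (DMSO) or 9.75 (AVJ16), well above the threshold of 3.

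Binding was concentrated in the first 2000 nt after the stop codon, which held 26 of the 41 peaks with DMSO and 23 of the 40 with AVJ16. In the first 1000 nt, 51.0% of the nucleotides were under a DMSO peak and 51.4% under an AVJ16 peak. In nt 1001 to 2000 the covered share was 83.8% with DMSO and 85.5% with AVJ16, the most of any 1000 nt of this 3’UTR. It then decreased to 30.5% and 34.0% in nt 2001 to 3000, and was between 8.50% and 23.6% in each later full 1000 nt. A stretch of 1369 nt, from nt 4187 to 5555, had no peak in either list, and 4 further peaks of each list lay between nt 5556 and 6584. The last 504 nt held none.

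**Figure D2:**
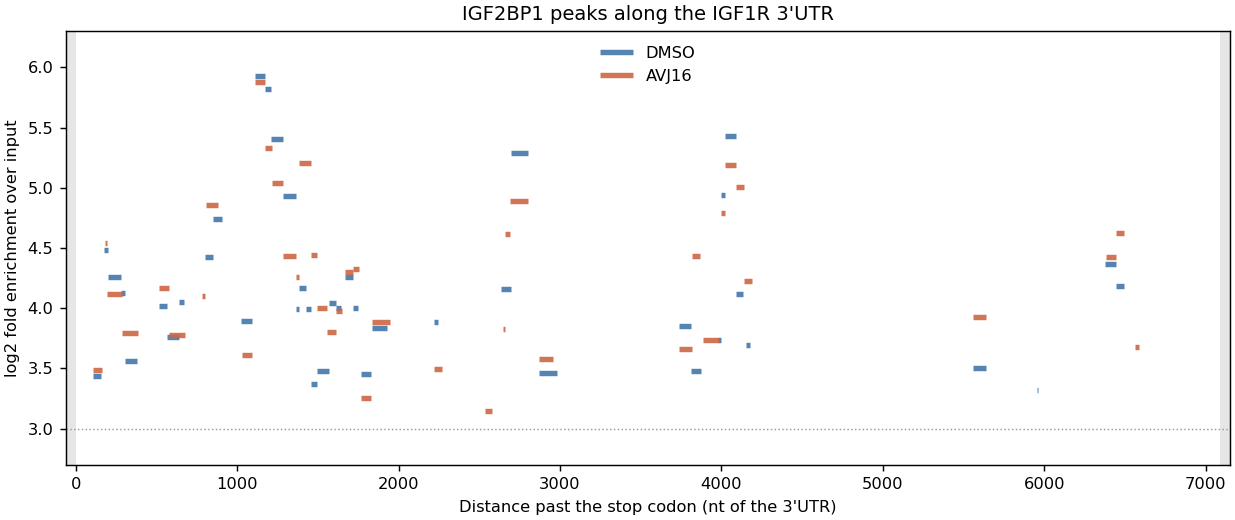
IGF2BP1 peaks along the IGF1R 3’UTR. The horizontal axis is the distance past the stop codon in nt, the vertical axis is the log2 fold enrichment over input, each bar is 1 peak of the DMSO (blue) or AVJ16 (orange) list drawn over its own length, and the dotted line is the threshold of 3. The highest peaks of both lists lie between nt 1109 and 1169, and no bar lies between nt 4187 and 5555.

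The longest continuous site was a run of 11 touching DMSO peaks from nt 1109 to 1644 (chr15:98958551-98959086, 536 nt), which 10 touching AVJ16 peaks covered from nt 1112 to 1651. It opened with the highest peak of the gene in both lists. That peak reached 5.93 at chr15:98958551-98958611 with DMSO and 5.88 at chr15:98958554-98958610 with AVJ16, above 99.5% of all DMSO peaks and 99.7% of all AVJ16 peaks. The sequence at its middle is the first window printed above. The DMSO values then stepped down over the next 3 peaks, from 5.82 to 5.41 and 4.93, and the AVJ16 values of their partners were 5.33, 5.04 and 4.43. In this 5′ portion every AVJ16 value was below its DMSO partner, by 0.05 to 0.50 on the log2 scale.

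In the middle of the same run the order was the other way round. The AVJ16 peak at chr15:98958824-98958897 had a log2 fold enrichment of 5.20, and the DMSO peaks paired with it had 4.17 and 3.99, which is 1.03 and 1.21 lower. The next AVJ16 peak, at chr15:98958898-98958934, stood at 4.45 over a DMSO peak of 3.37, a difference of 1.08. A further one was at 4.00 with AVJ16 and 3.47 with DMSO. Between nt 1382 and 1455 the AVJ16 value was 1.11 higher on average over 74 nt. Of the 11 DMSO peaks of the run, 6 had a lower and 5 a higher partner with AVJ16, and both kinds lay within 536 nt of one mRNA.

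A similar arrangement was seen further downstream. The DMSO peak at nt 4021 to 4092 was at 5.43, with an AVJ16 partner at 5.19. Directly after it, the DMSO peak at nt 4093 to 4134 was at 4.12 and its AVJ16 partner at 5.004, higher by 0.89. Slightly upstream, at nt 3819 to 3869, AVJ16 was at 4.43 over a DMSO value of 3.48. The strongest site by p-value lay between these regions, at nt 2693 to 2802, where the DMSO peak had a −log10 p of 70.9 at an enrichment of 5.29 and the AVJ16 peak had 75.6 at 4.89.

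Nearly every IGF1R site was listed under both treatments. Of the 41 DMSO peaks 40 (97.6%, 87.4 to 99.6%) overlapped an AVJ16 peak, beside 66.2% of all DMSO peaks. Of the 40 AVJ16 peaks 37 (92.5%, 80.1 to 97.4%) overlapped a DMSO peak, beside 70.8% of all AVJ16 peaks. The DMSO peak without a partner was 10 nt long, at 3.32. The shares were not matched for peak strength. Over all DMSO peaks the median −log10 p was 17.0 with a partner and 7.55 without, beside 25.0 for the IGF1R peaks. At the 40 shared DMSO peaks the median AVJ16 minus DMSO difference was 0.05 (95% order-statistic interval −0.15 to 0.23), with 17 values below 0 and 23 above. A difference beyond 0.5, the limit named in the methods of the study, was reached by 7 peaks on the higher side. On the lower side 0 reached it, and the lowest was −0.50. The study used that limit for clusters that had also passed an ANOVA across libraries. No such test could be run here, so these counts are not the differentially bound peaks of the study. Over all 14759 shared DMSO peaks, 12.6% were higher and 20.1% lower by more than 0.5. The 7 higher peaks rest on 6 AVJ16 peaks, since 1 of these overlaps 2 DMSO peaks. Because no listed peak is below 3, a DMSO peak within 0.5 of that threshold cannot be shared and lower by more than 0.5. This held for higher peaks with DMSO values of 3.37, 3.47 and 3.48, and it limits the falls counted for every gene. An AVJ16 peak that close to the threshold cannot be shared and higher by more than 0.5.

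**Figure D3:**
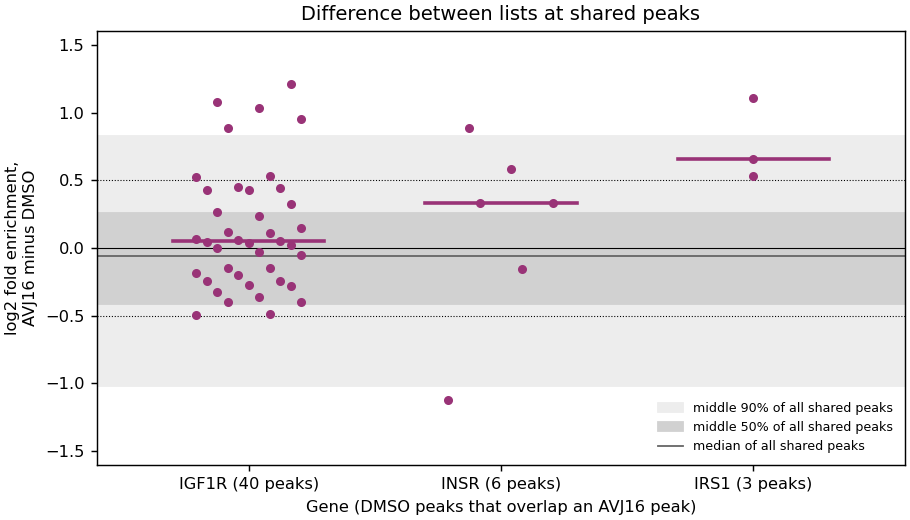
Difference between the lists (vertical axis, log2 fold enrichment with AVJ16 minus that with DMSO) at the DMSO peaks of IGF1R, INSR and IRS1 that overlap an AVJ16 peak; each point is 1 peak and each thick bar a gene’s median. Shading spans the middle 50% (dark) and 90% (light) of all 14759 shared peaks and dotted lines are at 0.5 and −0.5. The 3 IRS1 points are all above 0.5, and no IGF1R point is below −0.5.

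INSR (ENSG00000171105, chr19:7112255-7294414, minus strand) encodes the insulin receptor, whose shorter isoform also binds IGF2. It had 9 DMSO peaks, 8 of them in the 3’UTR of 4801 nt, and 14 AVJ16 peaks, 13 in the 3’UTR and 1 over the stop codon. Its log2 fold enrichments were lower than those of IGF1R, with a median of 3.51 with DMSO (3.23 to 4.65) and 3.84 with AVJ16 (3.16 to 4.56). The −log10 p values ran from 4.02 to 19.6 with DMSO and from 5.43 to 19.4 with AVJ16. Peaks covered 11.9% of the 3’UTR with DMSO and 20.9% with AVJ16.

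The additional AVJ16 peaks lay mainly near the start of the 3’UTR. In its first 1000 nt, 2 DMSO peaks covered 12.8% of the nucleotides, whereas 7 AVJ16 peaks and the peak over the stop codon covered 51.8%. The latter, at chr19:7117013-7117061, reached 3 nt into the CDS in exon 22, the last exon of INSR, and had a log2 fold enrichment of 3.16. Of these AVJ16 peaks, 5 overlapped no DMSO peak, with log2 fold enrichments from 3.16 to 4.24, and the nearest DMSO peak was 89 to 463 nt away. The site at nt 507 to 696 was listed in both, at up to 4.04 with DMSO and 4.38 with AVJ16. The remaining DMSO peak of INSR was in the CDS in exon 2, at chr19:7267601-7267726 and a value of 3.51, with no AVJ16 peak in that exon.

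Of the 9 INSR DMSO peaks, 6 had an AVJ16 partner, with a median difference of 0.33. The interval for so few peaks spans all 6 values, from −1.12 to 0.88. The highest DMSO peak of INSR, 26 nt at chr19:7115419-7115444, was at 4.65 with DMSO and 3.53 with AVJ16. This was the only shared peak of the 10 genes that was lower by more than 0.5, and the −log10 p of the pair was 5.66 (DMSO) and 8.96 (AVJ16). On the other side, the peak at nt 1852 to 1943 was at 3.35 with DMSO and 4.23 with AVJ16, and that at nt 2668 to 2764 at 3.58 and 4.16. Near the end of the 3’UTR the highest AVJ16 peak, at 4.56 (nt 4531 to 4622), overlapped no DMSO peak, and the closest one, at 3.50, lay 47 nt away.

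**Figure D4:**
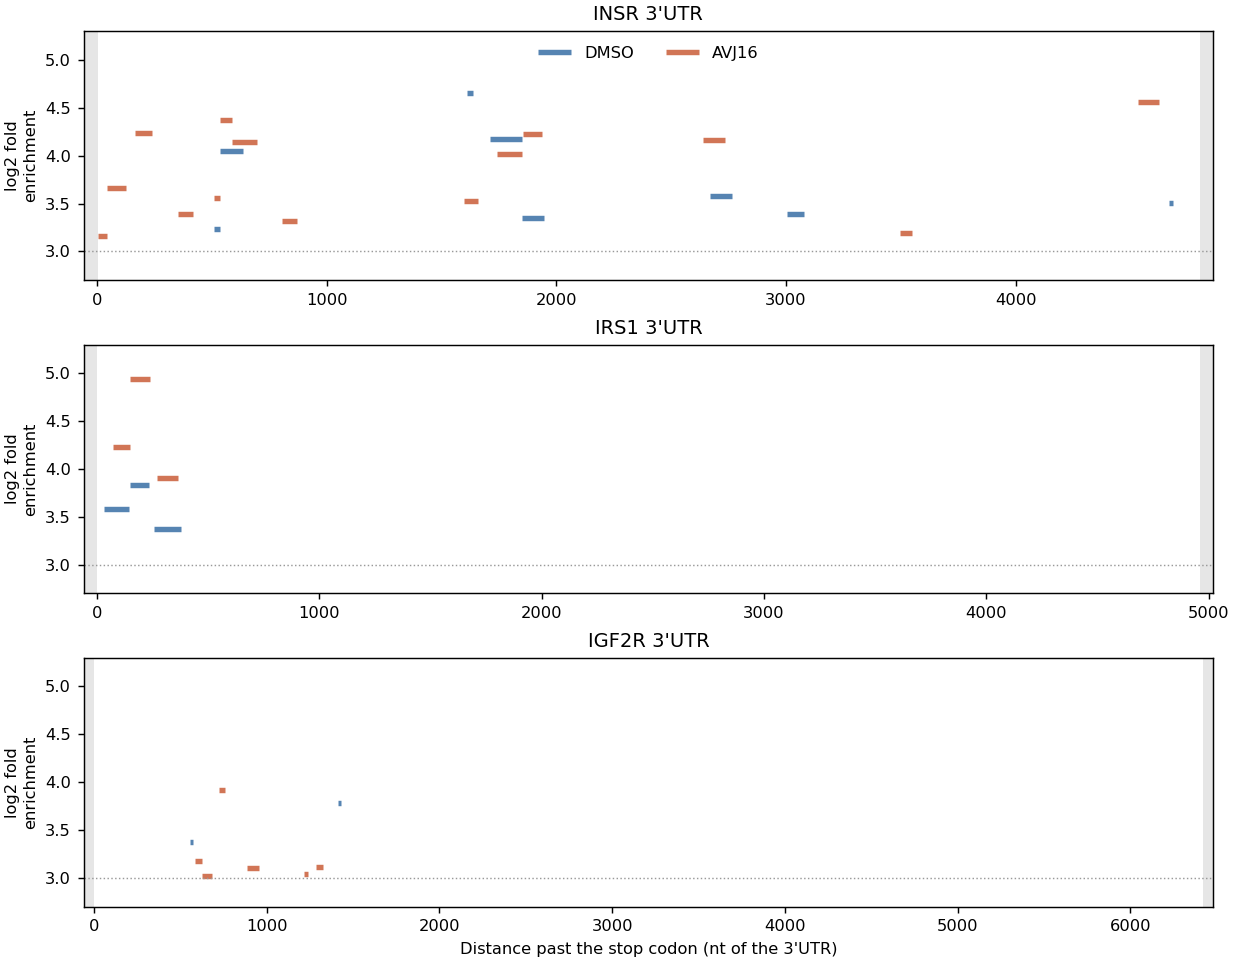
IGF2BP1 peaks along the 3’UTRs of INSR, IRS1 and IGF2R. Axes and colors are distance past the stop codon in nt, log2 fold enrichment over input, and DMSO (blue) or AVJ16 (orange), with the threshold of 3 as a dotted line; the CDS parts of peaks are not drawn. INSR has 7 AVJ16 peaks and 2 DMSO peaks in its first 1000 nt of 3’UTR besides the one over the stop codon, IRS1 has 3 of each list within nt 31 to 377, and IGF2R has 6 AVJ16 peaks that lie between its 2 DMSO peaks and overlap neither.

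IRS1 (ENSG00000169047, chr2:226731312-226799820, minus strand) encodes the adaptor protein that carries the signal of both receptors to PI3K. It had 3 DMSO and 3 AVJ16 peaks, each overlapping one of the other list. They lay side by side within nt 31 to 377 of a 3’UTR of 4960 nt, and the remaining 4583 nt had no peak. In IRS1 the stop codon is in exon 1 and nearly all of the 3’UTR is in exon 2, so these sites are at the 5′ start of exon 2, the first beginning 9 nt into that exon. In transcript order the DMSO values were 3.58, 3.84 and 3.38, and the AVJ16 values were 4.23, 4.94 and 3.91. All 3 AVJ16 values were higher, by 0.65, 1.11 and 0.53, and the values of the lists did not overlap. With DMSO the −log10 p was 6.11, 8.47 and 5.66, and with AVJ16 it was 7.33, 13.8 and 6.69. Only IGF1R, INSR and IRS1 had shared peaks, and of these IRS1 alone had every shared peak higher by more than 0.5. However, 3 neighboring peaks of a single gene are no replicates. Given the threshold of 3, the peak with a DMSO value of 3.38 could not have been shared and lower by more than 0.5.

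IRS2 (ENSG00000185950, chr13:109752695-109786583, minus strand), the related adaptor, had 1 DMSO peak in the 3’UTR at chr13:109754218-109754294, 2010 to 2086 nt past the stop codon. Its log2 fold enrichment of 3.14 and −log10 p of 3.65 were both close to the thresholds, and only 12.5% of all DMSO peaks were less enriched. No AVJ16 peak was listed in IRS2, and the list does not show whether the site was just under a threshold.

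IGF2R (ENSG00000197081, chr6:159969082-160113507, plus strand) encodes the receptor that clears IGF2 and carries mannose 6-phosphate-tagged enzymes. It had 3 DMSO and 6 AVJ16 peaks, none of which overlapped one of the other list. A DMSO peak of 19 nt was in the CDS in exon 13, at chr6:160044594-160044612, enriched by 3.35 on the log2 scale at a −log10 p of 3.06. The other DMSO peaks were in the 3’UTR at nt 557 to 575 (3.38) and nt 1412 to 1431 (3.78). The 6 AVJ16 peaks lay between these positions, at nt 586 to 1325, as close as 10 nt to a DMSO peak. The enrichment of 5 of them, from 3.02 to 3.18, was barely over the threshold, and the other was at 3.92. Their −log10 p nevertheless ran up to 35.5, the highest in the AVJ16 list for any of the genes other than IGF1R. Peaks covered 39 nt of the IGF2R 3’UTR with DMSO and 260 nt with AVJ16, of 6420 nt, and the 4989 nt beyond nt 1431 held none.

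Among the binding proteins of these 10 genes the listed sites were single and near the p-value threshold. IGFBP3 (ENSG00000146674, chr7:45912245-45921874, minus strand), the main carrier of IGFs in serum, had 1 AVJ16 peak of 184 nt in the 3’UTR at chr7:45913345-45913528 in exon 5. Its log2 fold enrichment was 4.11 and its −log10 p 3.20, the lowest of all 64 AVJ16 peaks of the 10 genes. IGFBP4 (ENSG00000141753, chr17:40443450-40457725, plus strand), which inhibits IGF action, had 1 DMSO peak of 117 nt in the 3’UTR at chr17:40456873-40456989 in exon 4, with 4.19 and a −log10 p of 3.94. IGFBP3 and IGFBP4 thus had enrichments above most peaks of their list together with −log10 p values near the lower limit. IGFBP2 (chr2:216632828-216664436) and IGFBP6 (chr12:53097436-53102345) had no peak, and their longest annotated 3’UTRs, 454 and 178 nt, are the shortest of the 10. IGF2 (chr11:2129112-2158391, minus strand) had no peak either, and its longest annotated 3’UTR has 3875 nt. Whether 3’UTR length bears on the absence of peaks was not tested.

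Over the 10 genes, 49 of 58 DMSO peaks (84.5%, 73.1 to 91.6%) had a partner in the AVJ16 list and 47 of 64 AVJ16 peaks (73.4%, 61.5 to 82.7%) one in the DMSO list, beside the 66.2% and 70.8% of all peaks. Without IGF1R the shares were 9 of 17 (52.9%, 31.0 to 73.8%) and 10 of 24 (41.7%, 24.5 to 61.2%). The high DMSO share thus rests on IGF1R, and the AVJ16 interval of the 10 genes includes the 70.8% of all AVJ16 peaks. The 9 DMSO peaks without a partner had a median log2 fold enrichment of 3.39 and a median −log10 p of 5.83, whereas the 49 with one had 4.00 and 23.7. The 17 AVJ16 peaks without a partner had 3.32 and 10.1, and the 47 others 4.22 and 27.3. Over all peaks the difference ran the same way, with 3.37 and 7.55 for DMSO peaks without a partner and 3.80 and 17.0 for those with one.

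At the 49 shared DMSO peaks of IGF1R, INSR and IRS1, 12 (24.5%) were higher with AVJ16 by more than 0.5 and 1 (2.04%) was lower, beside 12.6% and 20.1% over all shared peaks. The median difference was 0.06 (95% interval −0.03 to 0.33), beside −0.06 (−0.07 to −0.05) over all. The interval of the members includes 0. Across the 49 peaks the differences had an SD of 0.49, beside 0.56 over all shared peaks, and ran from −1.12 to 1.21. The 9 shared peaks outside IGF1R, all in INSR and IRS1, had a median difference of 0.53 (−0.15 to 0.88), an interval that also includes 0. Of these differences 5 were above 0.5 and 1 was below −0.5.

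The members’ 3’UTR windows come mostly from IGF1R, with 41 of 56 windows in the DMSO list and 40 of 63 in the AVJ16 list. At least one of CAUA, CAUC and CAUU was in 16 of 56 DMSO windows (28.6%, 18.4 to 41.5%), beside 36.6% of the 16644 windows of all DMSO 3’UTR peaks, and in 20 of 63 AVJ16 windows (31.7%, 21.6 to 44.0%), beside 35.2% of 16585. CAUC alone was in 14.3% of DMSO windows and 22.2% of AVJ16 windows (13.7 to 33.9%), beside 12.4% and 12.5%. Of the 14 AVJ16 windows with CAUC, 10 were in IGF1R (25.0%, 14.2 to 40.2%) and 4 in the 23 windows of the other genes. CAUU was in 10.7% (5.004 to 21.5%) and 6.35% (2.50 to 15.2%), beside 18.1% and 16.6%. In IGF1R it was in 2 of 41 DMSO windows (4.88%, 1.35 to 16.1%) and 1 of 40 AVJ16 windows (2.50%, 0.443 to 12.9%), and in the other genes in 4 of 15 and 3 of 23. The IGF1R interval for CAUU thus lay below the share of all windows in both lists. For CAUC in the AVJ16 list the interval lay above it. However, the windows at chr15:98960080-98960109 and chr15:98960103-98960132 share the same CAUC, so those 10 windows do not hold separate copies. These cases were picked from all motifs searched, and the lists share most IGF1R sites. GGAC was in 2 and 4 windows, UGGAC in 1 and 2, ACACA in 2 and 5 (3.57% and 7.94%, beside 4.15% and 4.05%), UCAUUC in 1 and 0 and CCNGUU in 0 and 1. UGGAC lies within GGAC counts, and windows of touching peaks overlap in part between the lists and sometimes within a list. Searches were on the transcript strand, and a match describes the letters in 30 nt and does not mark a site of contact. The IGF1R windows had a median GC content of 46.7% in both lists, close to the 47.1% of its whole 3’UTR, beside 43.3% over all 3’UTR peaks.

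Among 45 other genes of the pathway, from ligands to FOXO factors, 22 had a peak with DMSO and 23 with AVJ16, and 21 had one in both lists. These are 48.9% and 51.1% of the genes, beside the 25.8% and 23.2% of all protein-coding genes, and 21 of the 45 had none in either list. Of the 22 with a DMSO peak, 21 also had an AVJ16 peak, beside 79.1% of all protein-coding genes with a DMSO peak. IGF1, INS, the related INSRR and the IGFBP1 and IGFBP7 genes were among those without a peak. Together the 45 genes held 140 DMSO and 135 AVJ16 peaks. Of 86 shared DMSO peaks in 17 genes, 18 (20.9%) were higher and 12 (14.0%) lower with AVJ16 by more than 0.5, beside the 12.6% and 20.1% of all shared peaks.

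The binding protein with dense binding was IGFBP5, which was not among the 10. It had 15 DMSO and 16 AVJ16 peaks, all in the 3’UTR of 4646 nt, with a highest log2 fold enrichment of 5.09 and 5.46. At its 14 shared peaks the median difference was 0.05, from −1.40 to 1.05. GRB10, an adaptor that dampens signaling of both receptors, had 13 and 16 peaks, all in its 3’UTR.

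AKT1 differed in kind, with 15 DMSO peaks of which 2 were in the CDS, 13 in introns and 0 in the 3’UTR, and with 5 AVJ16 peaks, all in introns. STC2, a secreted glycoprotein that blocks the protease releasing IGFs from IGFBP4, had 12 DMSO peaks and 23 AVJ16 peaks, and the most positive difference at a shared peak of the 45 genes. The DMSO peak at chr5:173315631-173315681 stood at 3.55 and its AVJ16 partner at 5.41.

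By covered 3’UTR length in both lists, the genes most like IGF1R of 3506 compared were POMK, PTPN14 and SLC38A1. POMK, a kinase of O-mannosyl glycans, had 1990 nt covered with DMSO and 2342 nt with AVJ16, PTPN14, a tyrosine phosphatase, 2059 and 1991 nt, and SLC38A1, a glutamine transporter, 1807 and 2213 nt. The Euclidean distance from IGF1R in log2 nt was 0.14, 0.26 and 0.29. The median AVJ16 minus DMSO difference at their shared peaks was −0.17 over 33 peaks, 0.01 over 19 and 0.18 over 41, so that of IGF1R, 0.05 over 40, lay within their range.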

How the data were processed

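IGF2BP1 eCLIP of H1299 cells gave 1 deposited peak list per treatment. The authors trimmed adapters, discarded repeat reads, mapped with STAR, removed PCR duplicates, called peaks with CLIPper and merged replicates (IDR, by the labels). The log2 fold enrichment and the −log10 p (capped at 400) of IP over input were computed by the authors and deposited in that form. Labels give hg38; the methods name an older Gencode release.

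Here, genes and regions came from GENCODE 44, in the order CDS, 3’UTR, other, at 1 nt overlap. The stop codon was counted with the 3’UTR, and positions start after it in the longest annotated 3’UTR. A DMSO peak’s partner was the AVJ16 peak with the longest overlap, checked with bedtools 2.31.1, using Python 3.11.15, numpy 2.4.6 and pandas 2.3.3. Pairing and region calls were tested on simulated data. Genes, lists and limits were chosen with earlier results of these data known. Named genes were the 10, IGFBP5, the 3 other pathway genes with the most DMSO peaks, those with the most positive and most negative difference, and the 3 nearest to IGF1R in covered 3’UTR; 1 gene that this rule names is counted with its pathway and not reported here. RNA-seq and proteomics were not analysed here.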

Additional observations from a re-analysis of the deposited data

How the results depend on the processing

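Depth, replicate spread and RNA levels are unknown from the lists, so no result could be tested between treatments. No paired analysis was possible because each deposited list combines its replicates, and for the same reason leaving out a replicate could not be run. The median difference at the members’ shared peaks stayed above 0 in every alternative, and the cause of the changes below was not tested beyond what each setting leaves out. With an enrichment threshold of 4 in place of 3 (log2), the 10 genes kept 27 DMSO and 34 AVJ16 peaks, 100% of them in the 3’UTR in both lists, with 0 shared peaks lower and 2 higher by more than 0.5. With a −log10 p of at least 10, 100% of the DMSO and of the AVJ16 peaks were in the 3’UTR, 100% of the DMSO peaks overlapped an AVJ16 peak, and 0 were lower and 7 higher. Joining touching peaks left 33 DMSO and 41 AVJ16 sites. The AVJ16 share in the 3’UTR was 100% when the 3’UTR was put before the CDS and 99.9% by covered nucleotides. An overlap of 50% of both peaks left 0 lower peaks, and a limit of 1 left 4 higher. Without IGF1R, an alternative chosen after seeing the data, there were 17 DMSO and 24 AVJ16 peaks. Of these DMSO peaks 88.2% (65.7 to 96.7%) were in the 3’UTR and 52.9% overlapped an AVJ16 peak. The median difference was 0.53 (−0.15 to 0.88), and 5 peaks were higher. The other 25 values for the whole set, and 14 for IGF1R and INSR, changed by less than these limits: 1.5 times for a count, the 95% interval for a share or median.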
